A study of Drosophila melanogaster with 6 samples.

Results

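The mitochondrial ribosomal protein genes are the nuclear genes whose FlyBase symbol begins with mRpL or mRpS followed by a number, for proteins of the large and the small subunit of the mitochondrial ribosome. The count table held 71 of them among 17558 genes, 47 mRpL and 24 mRpS. In the annotation 73 genes fit the pattern, and the remaining pair, mRpS5 and mRpS34, carried identifiers that were not matched to the table and were not analysed here. RNA-seq was performed on 3 post-isolation (post) and 3 pre-isolation (pre) samples of male flies harvested 10 days after eclosion and kept at 25 °C, and the comparison asks what the isolation of tagged photoreceptor nuclei enriched or depleted. Flies of both groups had the same genotype, w;; UAS-GFP-Msp300KASH at attP2 with rh1-GAL4, in which the Rh1 promoter drives a nuclear membrane-localized GFP in the outer photoreceptors. The paper found rh1-GAL4 activity in antennae as well. It concludes that mainly photoreceptor nuclei were enriched, but that a small part most likely came from mechanosensory neurons. Post samples held nuclear RNA from nuclei bound to GFP antibody-coated beads and washed at 300 mM NaCl. Pre samples held total RNA from the head homogenate before isolation, and both kinds came from pooled heads. The groups therefore differed in cell makeup and in cell compartment at once, and these cannot be told apart here. Each post sample shares its replicate number with a pre sample, and the labels call the replicates paired.

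Mitochondria keep a small genome that encodes the ribosomal RNAs of their own ribosome and a handful of hydrophobic subunits of the respiratory chain and ATP synthase. All proteins of that ribosome are encoded in the nucleus, translated in the cytosol and imported, so each mitochondrial ribosome joins products of both genomes. Part of these proteins descend from bacterial ribosomal proteins, and others were added in the mitochondrial lineage and have no bacterial counterpart. Photoreceptors are rich in mitochondria, which supply ATP for ion pumping and phototransduction.

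Total gene counts ranged from 11693481 to 14522962 in post samples and from 9999540 to 11232033 in pre samples. Photoreceptor markers carried the labelled enrichment: all 9 were higher in post samples by edgeR's no-change test and 7 passed the 2-fold test (median log2 fold change 1.79), and their summed share of gene counts was 10.9–12.7% in post samples and 5.97–6.17% in pre samples. Of the other cell types, the fat body markers summed to 0.231–0.411% in post samples against 0.993–1.16% in pre samples (3 of 3 tested lower, Fbp1 at 0–6 counts), the glial markers to 0.0809–0.124% against 0.245–0.260% (5 of 6 lower), the muscle markers to 0.0336–0.0690% against 0.0760–0.0860% (3 of 5 lower, 1 higher) and the hemocyte markers to 0.0150–0.0273% against 0.0372–0.0406% (2 of 3 lower). Of the 4 pan-neuronal markers 3 were higher. Of the 4 pigment cell markers Pu was lower and w, which the UAS transgene also carries, was higher. The part of these cells in the values below was not tested. The labels call the 3 samples of a group biological replicates without saying what makes them separate, and the p-values measure the spread between these samples.

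The mitochondrial ribosomal protein genes were lower in post samples as a group. Their summed counts were 0.0337%, 0.0375% and 0.0380% of all gene counts in post samples, against 0.0891%, 0.0837% and 0.0861% in pre samples. All post values lay below all pre values, and the mean share in post samples (0.0364% ± 0.00235, SD, n = 3) was 0.422 times that in pre samples (0.0863% ± 0.00271, SD, n = 3). A two-sided exact permutation test gave p = 0.1, the smallest value that 3 samples against 3 allow. With the samples taken as numbered pairs, an exact test of sign flips gave p = 0.25, the smallest that 3 pairs allow. This share needs no scaling between samples, but it depends on the counts of all other genes. On that scale, by library size alone, the median log2 fold change of all tested genes was itself -0.51. In bulk RNA fewer cells of a type and less RNA per cell cannot be told apart.

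Gene by gene, 70 members were tested, since mRpL53 had no counts. Differences were fitted with edgeR's quasi-likelihood model on counts of the 10378 genes with a CPM (counts in 1000000 gene counts) above 1 in at least 3 samples, scaled with trimmed-mean (TMM) factors. By the no-change test with Benjamini-Hochberg adjustment over all tested genes (FDR below 0.05), 42 members were lower in post samples and 0 were higher, where 26.1% of all tested genes were lower and 24.4% were higher. None of the members above 0 passed an unadjusted p of 0.05 either, and DESeq2 called 37 lower and 0 higher. By the 2-fold test (edgeR's glmTreat, which asks for a change beyond 2-fold), 3 members were lower and 0 higher, where 4.89% of all tested genes were lower and 7.29% were higher. Thus the members' share past the no-change test was above the background, and their share past the 2-fold test (4.29%) was near it. For 48 members all post values lay below all pre values, as for 30.1% of all tested genes, and for 22 the groups overlapped. In the numbered pairs, 53 members were lower in all 3 pairs, 14 in 2 and 3 in 1.

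The log2 fold changes of the 70 members ran from -3.26 to 0.16 with a median of -0.95, against a median of -0.07 over all tested genes. Values below 0 were found for 68 members, as for 52.7% of all tested genes. The 42 members past the no-change test lay between -3.26 and -0.56, and the 28 that did not pass lay between -0.99 and 0.16. Precision was limited by low counts: the median member had 49 counts in a post sample and 110.5 in a pre sample, and the median standard error of a member's log2 fold change was 0.34, against 0.23 over all tested genes. Scaling by library size alone moved the median of all genes to -0.51 and that of the members to -1.40, so the members lay 0.89 below the median of all genes with either scaling. With that scaling 59 members were lower by the no-change test and 21 by the 2-fold test, while over all genes the 2-fold calls split into 1253 lower and 451 higher (508 and 757 with TMM factors) and the no-change calls into 4326 lower and 1394 higher (2707 and 2535 with TMM factors).

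**Figure D1:**
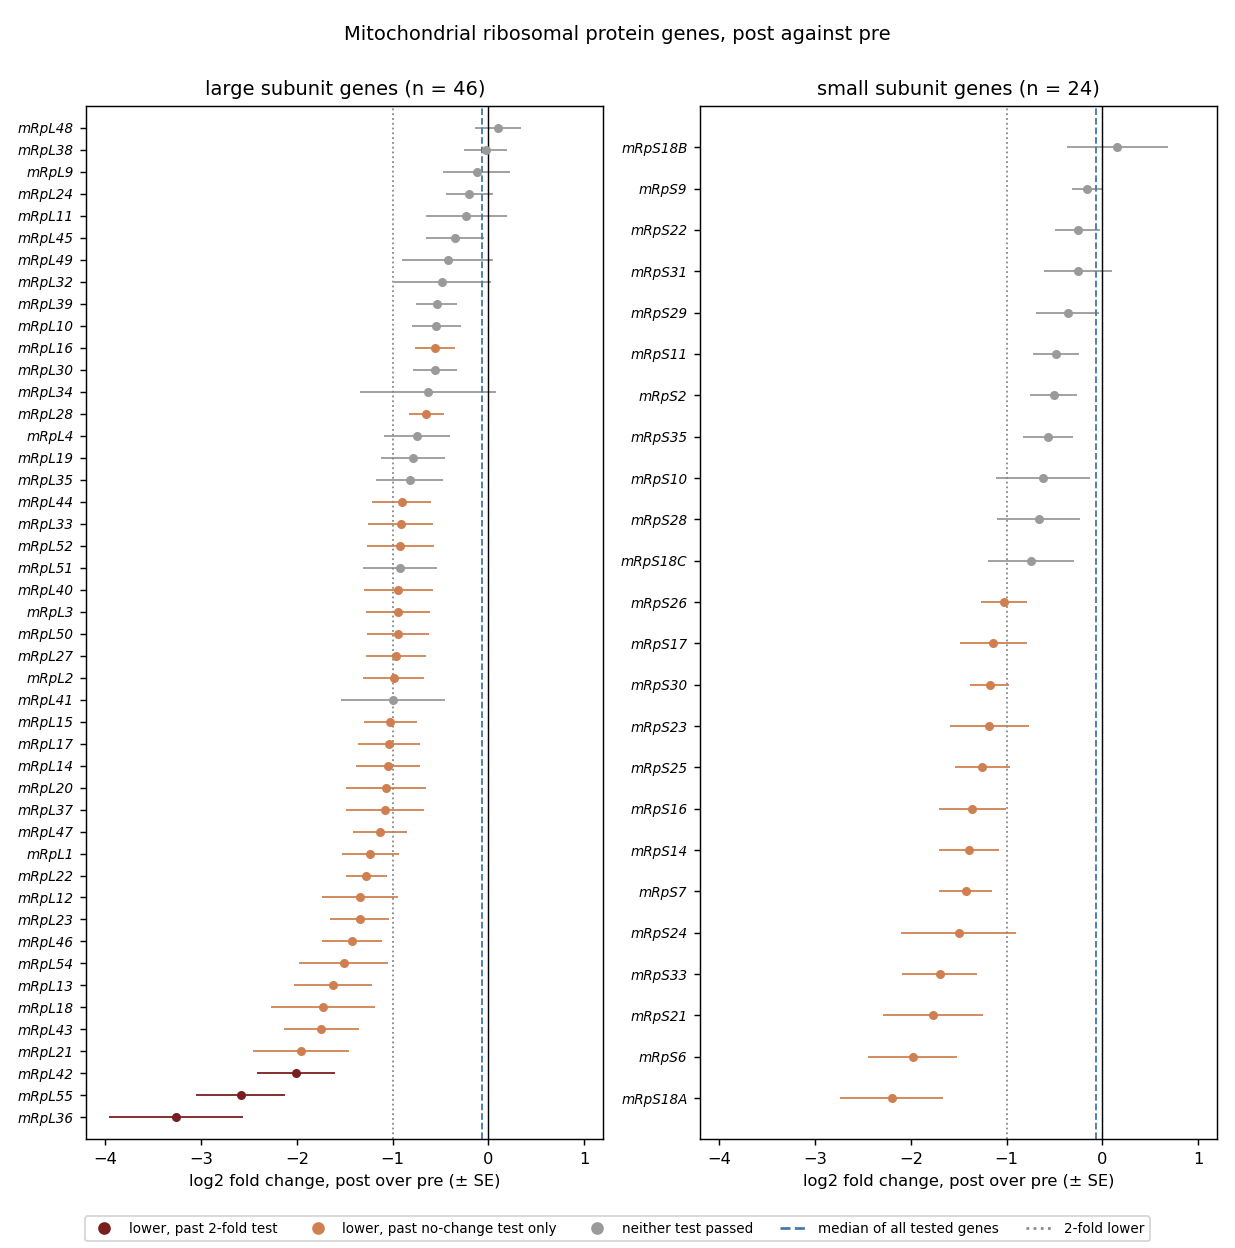
Log2 fold change, post over pre, of each tested gene (x axis) with its standard error, large subunit genes left and small subunit genes right, coloured by the test passed. In total 68 of 70 points lie below 0, and the dashed line marks the median of all tested genes (-0.07).

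Genes of both subunits, assigned by symbol alone, lay mostly below 0. Of the 46 tested large subunit genes 29 passed the no-change test as lower (median log2 fold change -0.94, range -3.26 to 0.10), and of the 24 small subunit genes 13 passed (median -1.08, range -2.20 to 0.16). The small subunit genes include mRpS18A, at the lower end of that range, and mRpS30, whose relatives sit in the large subunit in mammals. The log2 ratio of summed small to summed large subunit counts within each sample was -0.90, -0.82 and -0.75 in post samples, against -0.82, -0.92 and -0.93 in pre samples. These values overlapped, and the difference of 0.07 did not pass the exact permutation test (p = 0.2). Among the genes of either subunit 0 passed the 2-fold test as higher, with 0 at an unadjusted p of 0.05 and 0 by DESeq2. All 3 genes past the 2-fold test belonged to the large subunit (6.52% of its tested genes, against 4.89% of all tested genes). Of the small subunit genes 0 passed it after adjustment (6 at an unadjusted p of 0.05, 0 by DESeq2). With so few calls near the background share, a difference between the subunits in these calls was not tested.

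By the assigned origin of their proteins, the medians lay close together. Of the 44 tested genes with a bacterial counterpart, 27 were lower by the no-change test (median -0.98), and of the 26 tested genes specific to mitochondria, 15 were lower (median -0.94). Within the large subunit the medians were -0.96 for 29 genes of bacterial families and -0.94 for 17 mitochondria-specific genes, and within the small subunit they were -1.14 for 15 genes and -1.03 for 9 genes. Families were assigned by protein number (up to 36 in the large and up to 21 in the small subunit, with mRpL47, mRpS24 and mRpS28 added). Neither sequence nor structure was used, so the class of single genes, and with it the class counts, may be wrong. By chromosome, 8 of 11 X-linked members were lower (median -0.94) and 34 of 59 autosomal members were lower (median -0.96), while the medians of all tested genes were -0.04 on the X chromosome and -0.07 on the autosomes.

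The lowest value belonged to mRpL36 (FBgn0042112, 3L:8124584-8125132, minus strand, 2 exons), of the family of a small zinc-binding protein of the bacterial large subunit. It had 3, 11 and 0 counts in post samples, against 50, 53 and 50 counts in pre samples. Its pre values were nearly alike and all post values were far below them. The log2 fold change was -3.26 ± 0.70 (SE), with an FDR of 0.000992 by edgeR's no-change test and 0.0128 by its 2-fold test. With 14 counts over all post samples, the size of the change is loosely set: the estimate was -4.83 without post replicate 2 and -2.65 without post replicate 3. The 2-fold call was lost without post replicate 1 (edgeR FDR 0.0712) and with DESeq2 (adjusted p = 0.0582), and the gene fell below the CPM filter when any pre replicate was left out.

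mRpL55 (FBgn0038678, 3R:19094394-19094905, minus strand, 2 exons) encodes a protein of the large subunit that was classed as mitochondria-specific by its number alone. Its CPM, here and below scaled with the TMM factors, was 1.63, 1.75 and 0.912 in post samples, against 10.5, 10.2 and 5.12 in pre samples. The third replicate was the lowest in both groups, and the groups were well apart. With a log2 fold change of -2.59 ± 0.46 and an edgeR 2-fold FDR of 0.00774, it passed the 2-fold test in all 14 alternative analyses that included it (adjusted p between 0.00205 and 0.0331).

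mRpL42 (FBgn0033480, 2R:10066650-10067242, plus strand, 1 exon) was also classed as mitochondria-specific by its number. Its CPM was 1.46, 2.296 and 1.46 in post samples, against 6.67, 7.54 and 6.83 in pre samples. Values within each group were close, and the groups did not overlap. The log2 fold change was -2.01 ± 0.40, with an edgeR 2-fold FDR of 0.0333. This call was near the threshold and held in 8 of 14 alternatives: edgeR's 2-fold FDR was 0.120 without post replicate 1, 0.0846 without post replicate 3, and 0.0519, 0.0792 and 0.0579 without pre replicate 1, 2 and 3 in turn, and DESeq2 gave an adjusted p of 0.283. The no-change test was passed by mRpL42 in all 14. The number of members past the 2-fold test was 1 without pre replicate 1, 1 without pre replicate 2 and 1 without post replicate 1.

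Of the 7 lowest members, the other 4, all of bacterial families, passed edgeR's no-change test but not the 2-fold test. mRpS18A, the third lowest, is described with its paralogs. mRpS6 (FBgn0035534, 3L:4364550-4365243) encodes the relative of a bacterial protein that pairs with S18 on the platform of the small subunit. Its CPM was 2.32, 0.551 and 1.64 in post samples, against 5.98, 6.59 and 5.55 in pre samples. The pre samples were close together and the post samples were spread, without overlap (log2 fold change -1.98 ± 0.46, edgeR no-change FDR 0.00229).

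mRpL21 (FBgn0036853, 3L:19253290-19255061), of a bacterial large subunit family, had a CPM of 1.29, 0.735 and 2.099 in post samples, against 5.82, 6.82 and 3.33 in pre samples. All post values were below the lowest pre value, that of replicate 3 (log2 fold change -1.96 ± 0.51, edgeR no-change FDR 0.00480). Its annotated exons sum to 1696 bases, which makes it an exception among the strongly lowered members, most of which are short.

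mRpS21 (FBgn0044511, 3R:13381276-13381809), another protein of the small subunit platform in bacteria, had a CPM of 0.860, 0.919 and 2.28 in post samples, against 5.59, 5.24 and 2.90 in pre samples. Replicate 3 was the highest post and the lowest pre sample, so the gap between groups was narrow there. The log2 fold change was -1.77 ± 0.52 (edgeR no-change FDR 0.0109), and the call was lost without post replicate 1 (FDR 0.0525). On the opposite strand another gene overlaps 48.0% of its exon bases, and the authors counted reads by strand.

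The genes mRpS18A, mRpS18B and mRpS18C are paralogs of 1 bacterial family, and in mammals all 3 proteins are present in 1 ribosome, mRpS18A's relative in the large subunit and the other two in the small subunit. mRpS18A (FBgn0051450, 3R:8561917-8562593) had a CPM of 0.688, 0.919 and 0.913 in post samples, against 4.37, 2.86 and 4.44 in pre samples. It was lower in every post sample (log2 fold change -2.20 ± 0.54, edgeR no-change FDR 0.00324) and missed the 2-fold test with an edgeR FDR of 0.0557. mRpS18C (FBgn0039765, 3R:30423974-30424556), whose mammalian relative takes the place of the bacterial protein, had a CPM of 1.81, 3.40 and 1.92 in post samples, against 3.68, 3.33 and 4.95 in pre samples. The groups overlapped by the values of replicate 2, and the log2 fold change of -0.74 ± 0.45 did not pass (edgeR no-change FDR 0.183).

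mRpS18B (FBgn0032849, 2L:20096329-20097253) had the highest log2 fold change of all members and the lowest level per kb in pre samples (2.59 ± 0.447 CPM per kb, SD, n = 3). Its CPM was 4.21, 1.47 and 1.73 in post samples, against 2.68, 1.98 and 2.05 in pre samples. Only post replicate 1 lay above the pre samples. The log2 fold change of 0.16 ± 0.53 (edgeR no-change FDR 0.830) was -0.48 without post replicate 1 and -0.30 with scaling by library size alone. Differences between the 3 paralogs' fold changes were not tested, and reads that map to more than 1 place were not counted by the authors.

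The other members at the top of the order did not differ between the groups beyond their spread. mRpL48 (FBgn0031357, 2L:1710462-1711465), a protein of the central protuberance of the large subunit in mammalian structures, had a CPM of 16.4, 22.04 and 12.6 in post samples, against 15.4, 14.1 and 18.2 in pre samples. Its highest and lowest values were both in post samples (log2 fold change 0.10 ± 0.24, edgeR no-change FDR 0.756, and -0.35 with library size alone).

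mRpL38 (FBgn0030552, X:14226289-14227949), of the same protuberance, had a CPM of 18.7, 16.99 and 11.9 in post samples, against 17.7, 15.5 and 15.5 in pre samples. The groups overlapped, with post replicate 3 the lowest of all 6 (log2 fold change -0.03 ± 0.22, edgeR no-change FDR 0.926). mRpL9 (FBgn0038319, 3R:15330738-15331588), whose bacterial relative sits at the base of the L1 stalk, had a CPM of 7.13, 4.78 and 7.85 in post samples, against 6.36, 10.3 and 4.78 in pre samples. Here too the groups overlapped over most of their range (log2 fold change -0.12 ± 0.35, edgeR no-change FDR 0.799).

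**Figure D2:**
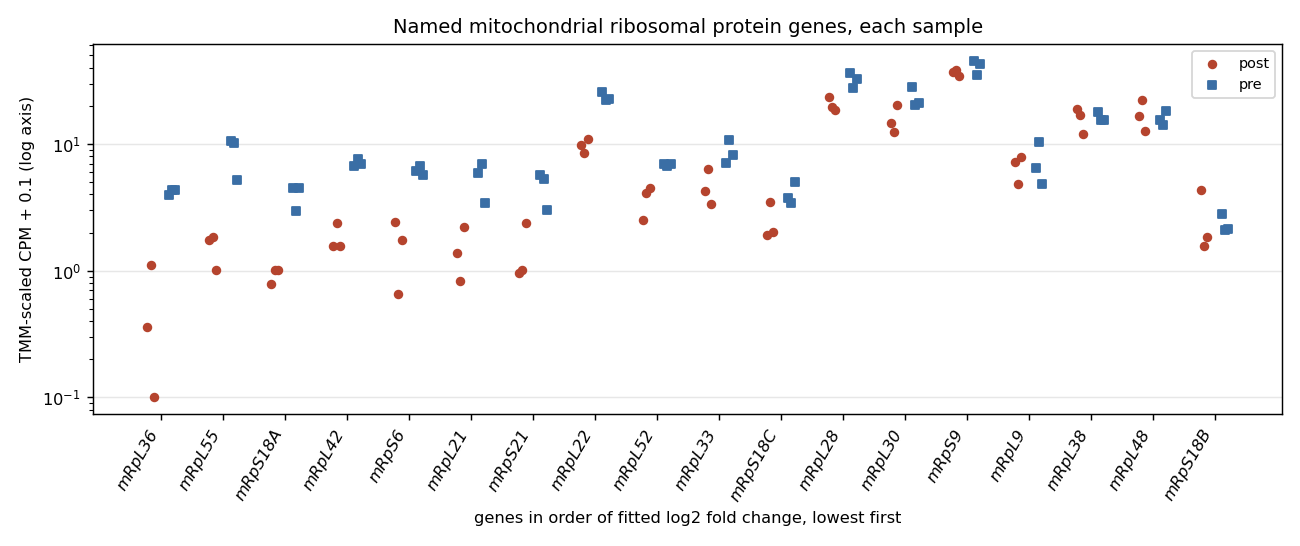
CPM scaled with TMM factors, plus 0.1, on a log axis for 18 named members in order of their log2 fold change, with post samples as circles left of pre samples as squares. At the left end the groups are apart (mRpL36 at 0, 0.258 and 1.01 CPM in post samples and 3.83 to 4.27 CPM in pre samples). They overlap for mRpS18C and mRpL30, and from mRpS9 to the right.

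Levels between genes were compared per kilobase of exon. The members' mean levels in post samples ran from 0.810 to 28.3 CPM per kb with a median of 5.23, and in pre samples from 2.59 to 33.1 with a median of 11.5. Over all tested genes the medians were 8.93 CPM per kb in post samples and 9.51 in pre samples, so the members' median was below it in post and above it in pre samples. Cytosolic ribosomal protein genes had far higher levels, with medians of 149.9 CPM per kb in post and 378.7 in pre samples, and nuclear genes of oxidative phosphorylation (OXPHOS) had medians of 41.9 in post and 79.5 in pre samples. In pre samples the member at the 90th percentile had 3.22 times the level of the one at the 10th, and this ratio was 4.44 in post samples. For the cytosolic ribosomal protein genes the ratio was 3.65 in post and 3.82 in pre samples, and for all tested genes 37.8 in post and 36.3 in pre samples. Across the 70 members the levels in post and pre samples were ranked alike (Spearman's rho 0.74, a description over genes that share the same libraries and lengths).

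The 5 members with the highest pre level were mRpL30, mRpS9, mRpL28, mRpL33 and mRpL22, which differed in how far they were lowered. mRpS9 (FBgn0037529, 3R:7889277-7902667), whose bacterial relative reaches with its tail toward the P-site tRNA, led the post samples. It had 36.7, 38.5 and 34.5 CPM in post samples, against 45.3, 34.7 and 43.0 CPM in pre samples. The groups overlapped through pre replicate 2, and the log2 fold change of -0.17 ± 0.16 did not pass (edgeR no-change FDR 0.403). Its standard error was the smallest of all members. Of all members it also had the most exons (7) and the longest span, 13391 bases, where the median member spans 909 bases.

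mRpL22 (FBgn0030786, X:16783933-16785092), whose bacterial relative lines the exit tunnel, had a CPM of 9.71, 8.45 and 10.95 in post samples, against 25.5, 22.2 and 22.7 in pre samples. The groups were well apart (log2 fold change -1.27 ± 0.21, edgeR no-change FDR 0.000149), and the call held in 15 of 15 alternatives. mRpL28 (FBgn0031660, 2L:4973976-4975316) had a CPM of 23.3, 19.5 and 18.3 in post samples, against 36.1, 27.4 and 32.6 in pre samples. It was lower by a smaller amount without overlap (log2 fold change -0.65 ± 0.18, edgeR no-change FDR 0.00823), again in 15 of 15 alternatives.

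mRpL30 (FBgn0029718, X:4647871-4648646), the member with the highest level per kb in pre samples (33.1 ± 6.23 CPM per kb, SD, n = 3), had a CPM of 14.6, 12.3 and 20.2 in post samples, against 28.04, 20.07 and 21.09 in pre samples. Post replicate 3 lay just above the lowest pre sample. The log2 fold change was -0.56 ± 0.23, and edgeR's no-change FDR was 0.0528 without and 0.0460 with the replicate number as a block. The gene was called in 5 of 15 alternatives, among them the block and the fit without post replicate 3 (log2 fold change -0.72). mRpL33 (FBgn0040907, X:4321764-4322231), of a family near the exit-site tRNA in bacteria and with only 349 exon bases, had a CPM of 4.13, 6.25 and 3.29 in post samples, against 7.05, 10.6 and 8.11 in pre samples. All post values were below the lowest pre value (log2 fold change -0.92 ± 0.34, edgeR no-change FDR 0.0364), but the call held in 9 of 14 alternatives, and the log2 fold change was -0.74 without pre replicate 2, -0.96 without pre replicate 3, -0.84 without post replicate 1 and -0.68 without post replicate 3, each without a call, as with DESeq2 (-0.86).

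mRpL52 (FBgn0033208, 2R:7673721-7674400), classed as mitochondria-specific, had a CPM of 2.41, 4.04 and 4.38 in post samples, against 6.90, 6.66 and 6.83 in pre samples. The pre samples were nearly equal and all post samples were lower (log2 fold change -0.92 ± 0.35). edgeR's no-change FDR was 0.0417 without and 0.0563 with the replicate block, and the call held in 5 of 14 alternatives. It was lost without each pre replicate in turn (log2 fold change -0.91, -0.94 and -0.92 without replicate 1, 2 and 3) and without post replicate 1 (-0.68) or post replicate 2.

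mRpL53 (FBgn0050481, 2R:13954195-13955664, plus strand) was at 0 counts in all 6 samples. Its 829 annotated exon bases lie wholly (100%) within exons of CG33155 on the same strand, and the counter's default leaves reads shared by 2 genes unassigned, so the count of 0 gives no level for this gene. Exons on the same strand also overlapped for mRpL13 (35.2% of its exon bases, with CG10602) and mRpS14 (3.8%, with CG32533), whose counts are therefore partial.

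Some members were also placed by the position of their relatives in bacterial or mammalian ribosomes. These sets were chosen after the values were seen and are not complete, so the regions were not compared. Most sets held genes that passed the no-change test beside genes that did not. Of 4 genes placed at the stalks of the large subunit, 2 were lower by edgeR's no-change test: mRpL1 at -1.23 ± 0.29 (FDR 0.00278) and mRpL12, of the family that recruits translation factors, at -1.34 ± 0.40 (FDR 0.0107). The stalk base gene mRpL11 had a CPM of 3.53, 4.41 and 2.19 in post samples, against 3.14, 5.32 and 3.42 in pre samples. Its groups overlapped (log2 fold change -0.23 ± 0.42, edgeR FDR 0.687), and mRpL10, which anchors the stalk, did not pass either (-0.54 ± 0.26, edgeR FDR 0.0931).

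Around the peptidyl transferase centre, where peptide bonds are formed, all 4 genes placed there (mRpL2, mRpL3, mRpL16 and mRpL27) were lower by edgeR's no-change test, with log2 fold changes between -0.99 and -0.56. At the exit tunnel 4 of 7 genes placed there were lower: mRpL17, mRpL22, mRpL23 and mRpL47. The exceptions were mRpL4, mRpL24 and mRpL45, whose mammalian relative contacts the inner membrane. mRpL24 had a CPM of 15.6, 13.5 and 8.67 in post samples, against 13.9, 14.1 and 15.5 in pre samples, so that 1 post sample lay above and 2 lay below all pre samples. Of 4 genes placed in the central protuberance, mRpL40 and mRpL46 were lower (-0.94 and -1.42) and mRpL38 and mRpL48 did not pass. mRpL18, which was placed in no set, was lower as well (-1.73 ± 0.55, edgeR FDR 0.016).

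In the small subunit, 2 of 5 genes placed in the head were lower by edgeR's no-change test. mRpS7, whose bacterial relative helps to nucleate assembly of the head, had a CPM of 4.21, 6.98 and 5.29 in post samples, against 15.1, 13.3 and 15.9 in pre samples. The groups were far apart (log2 fold change -1.43 ± 0.28, edgeR FDR 0.000531). mRpS14 was lower as well (-1.39), while mRpS9, mRpS10 and mRpS29, a GTP-binding protein in mammals, did not pass. Of 5 genes placed in the body and platform, mRpS6, mRpS16, mRpS17 and mRpS21 were lower and mRpS11 (-0.48 ± 0.24, edgeR FDR 0.114) did not pass. The set leaves out mRpS18C, which did not pass either (-0.74 ± 0.45, edgeR FDR 0.183). Among other small subunit members placed in no set, mRpS24 and mRpS33 were lower, while mRpS31 and mRpS35 did not pass.

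Short transcripts were frequent among the members, whose summed exon length had a median of 783 bases (327 to 2078), against 2022 bases over all tested genes. The 49 members of at most 1000 exon bases had 31 genes lower by edgeR's no-change test and a median log2 fold change of -1.05, and the 21 longer members had a median of -0.74 with 11 lower. Other short genes were also lower: the 1357 tested protein-coding genes of at most 1000 exon bases, members included, had a median of -0.51 with 36.7% lower, and the 8001 longer ones had a median of -0.02 with 25.4% lower. Within each length class the members' median lay below that of the class. Log2 fold change and exon length were related with a Spearman's rho of 0.40 over 70 members and 0.18 over 10169 annotated tested genes, as a description over genes of the same libraries. For expression level, the 1761 tested genes whose mean CPM lay in the members' interquartile range had a median of -0.20 with 23.1% lower. The part of transcript length in the members' values was not tested.

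**Figure D3:**
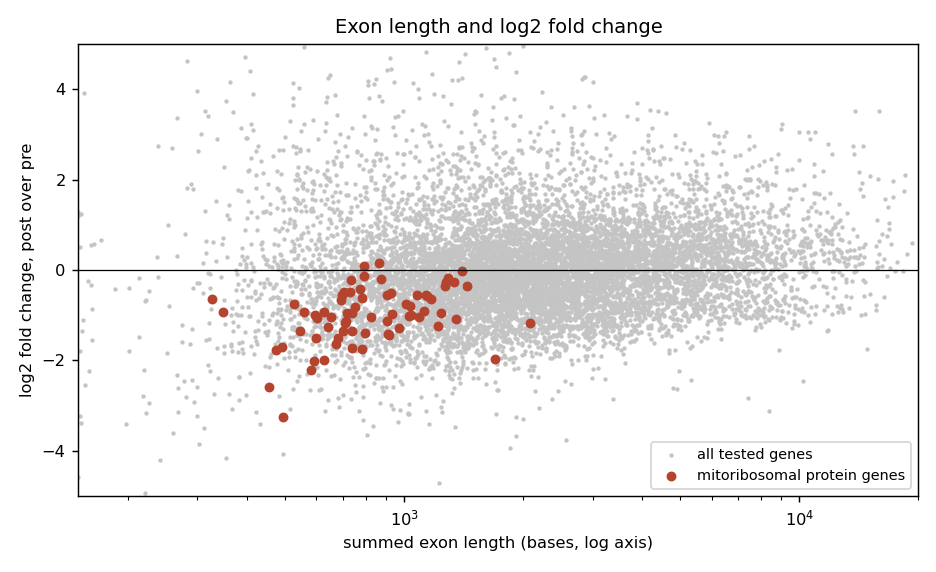
Log2 fold change, post over pre, against summed exon length on a log axis, for the mitochondrial ribosomal protein genes (red) and all annotated tested genes (grey, 131 of 10169 outside the axes). Members sit between 327 and 2078 bases and mostly below 0, in the lower part of a cloud whose short genes also have a median below 0.

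Members were then set against other gene groups within the same sample, where a ratio of summed counts needs no scaling between samples. Relative to nuclear OXPHOS genes, the log2 ratio of summed counts was -3.51, -3.37 and -3.52 in post samples, against -3.45, -3.46 and -3.47 in pre samples. The groups overlapped, and the difference of their means was -0.00465 (exact permutation test, p = 1.0). With equal weight for every gene, the difference of mean log2(CPM + 1) was also taken, over all 91 listed OXPHOS genes, of which 74 were tested. By this measure the members were lower in all post samples (difference -0.131, exact permutation test, p = 0.1). Genes below the CPM filter enter this mean too, so it does not compare the members with the tested OXPHOS genes alone. The added 1 also makes this measure depend on the scaling and shrinks differences of genes at low CPM. Without post replicate 2 the difference of the summed ratio was -0.0518 (exact permutation test, p = 0.1). By gene, 55 of 74 tested nuclear OXPHOS genes were lower by edgeR's no-change test and 0 higher (median log2 fold change -0.98; 2 higher at an unadjusted p of 0.05, and 1, UQCR-11, higher by DESeq2 and with the replicate block). By the 2-fold test 14 were lower (9 by DESeq2).

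Relative to cytosolic ribosomal protein genes, the log2 ratio was -4.56, -4.73 and -5.10 in post samples, against -5.31, -5.43 and -5.34 in pre samples. All post values were higher, by 0.56 in the mean, with post replicate 3 closest to the pre samples (exact permutation test, p = 0.1, the smallest possible). By gene, all 79 tested cytosolic ribosomal protein genes were lower by edgeR's no-change test (median log2 fold change -1.41) and 54 passed the 2-fold test (27 by DESeq2). The ratio to the mitochondrially encoded genes, whose RNA is made outside the nucleus, was added after the data were seen. Its log2 value was -2.82, -3.16 and -3.45 in post samples, against -4.66, -4.73 and -4.54 in pre samples. It was higher in every post sample, with means of -3.14 in post and -4.64 in pre samples (exact permutation test, p = 0.1). As the difference of mean log2(CPM + 1), with equal weight for every gene, it was 0.36 higher (exact permutation test, p = 0.1). That mean ran over all 37 listed mitochondrially encoded genes, of which 18 were tested and the others were tRNA genes with few or no counts. By edgeR's no-change test 16 of 18 tested mitochondrially encoded genes were lower (median log2 fold change -2.65), and 17 with the replicate block, which added mt:ATPase8. Their summed share was 0.237–0.416% of gene counts in post samples and 2.00–2.25% in pre samples.

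Genes for proteins that work beside the mitochondrial ribosome were counted in the same way. Of 9 tested translation factor genes, 2 were lower by edgeR's no-change test and 0 higher, with a median log2 fold change of -0.24. These were mEFTu1, which delivers charged tRNAs to the ribosome (-0.62 ± 0.17, edgeR FDR 0.00787), and mEFG1, the translocase (-0.56 ± 0.21, edgeR FDR 0.0406), whose call was lost with DESeq2 (adjusted p = 0.0711). The ends of the list were mRF1, a release factor, at -0.78 ± 0.31 (edgeR FDR 0.0511), and mIF2, an initiation factor, at 0.29 ± 0.40 (edgeR FDR 0.577).

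Of 14 tested mitochondrial aminoacyl-tRNA synthetase genes, which charge the organelle's tRNAs, 1 was lower and 1 higher by edgeR's no-change test (median -0.10). AspRS-m was lower by a small amount (-0.38 ± 0.14, edgeR FDR 0.0351), a call that was lost with DESeq2 (adjusted p = 0.0843). GluRS-m had 25.3, 15.3 and 12.0 CPM in post samples, against 9.81, 4.92 and 7.77 CPM in pre samples, with all post samples above all pre samples (log2 fold change 1.23 ± 0.32, edgeR FDR 0.00511). The other extreme values were ProRS-m at -0.85 and ValRS-m at -0.70, and LeuRS-m at 0.34, none of which passed. The log2 ratio of member counts to those of factors and synthetases together, added after the data were seen, was 0.52, 0.59 and 0.39 in post samples, against 1.23, 1.13 and 1.04 in pre samples. It was lower in every post sample, by 0.63 in the mean (exact permutation test, p = 0.1). The factor and synthetase transcripts are longer than those of the members (median exon lengths of 1711 and 2650 bases).

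None of the 9 tested genes of mitochondrial transcription and genome maintenance passed edgeR's no-change test (1 lower and 1 higher at an unadjusted p of 0.05, 0 by DESeq2; median 0.08). The lowest were mtSSB, the single-strand binding protein (-0.95 ± 0.52, edgeR FDR 0.145), and mTerf5 (-0.38), and the highest were mtTFB2, a transcription initiation factor (0.81 ± 0.35, edgeR FDR 0.0649), and mtDNA-helicase (0.69). PolG2 and mtTFB1 had 0 counts in all samples. Their overlaps with exons of other genes are not reported here, so the 0 is not read as absence of expression. By the 2-fold test, 0 genes of these 3 lists passed in either direction, with 0 at an unadjusted p of 0.05 and 0 by DESeq2.

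The genes bonsai and tko also encode mitochondrial ribosomal proteins but carry the names of their mutants. bonsai, for the S15 protein, had 2.23, 2.296 and 5.29 CPM in post samples, against 7.74, 9.92 and 7.77 CPM in pre samples, and was lower (log2 fold change -1.38 ± 0.38, edgeR no-change FDR 0.00716). tko, for the S12 protein of the decoding centre, had 13.3, 14.6 and 12.7 CPM in post samples, against 9.73, 11.03 and 8.79 CPM in pre samples. All its post values were higher, which held for 0 of the 70 members and for 28.0% of all tested genes, but the log2 fold change of 0.46 ± 0.23 did not pass (edgeR no-change FDR 0.122).

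**Figure D4:**
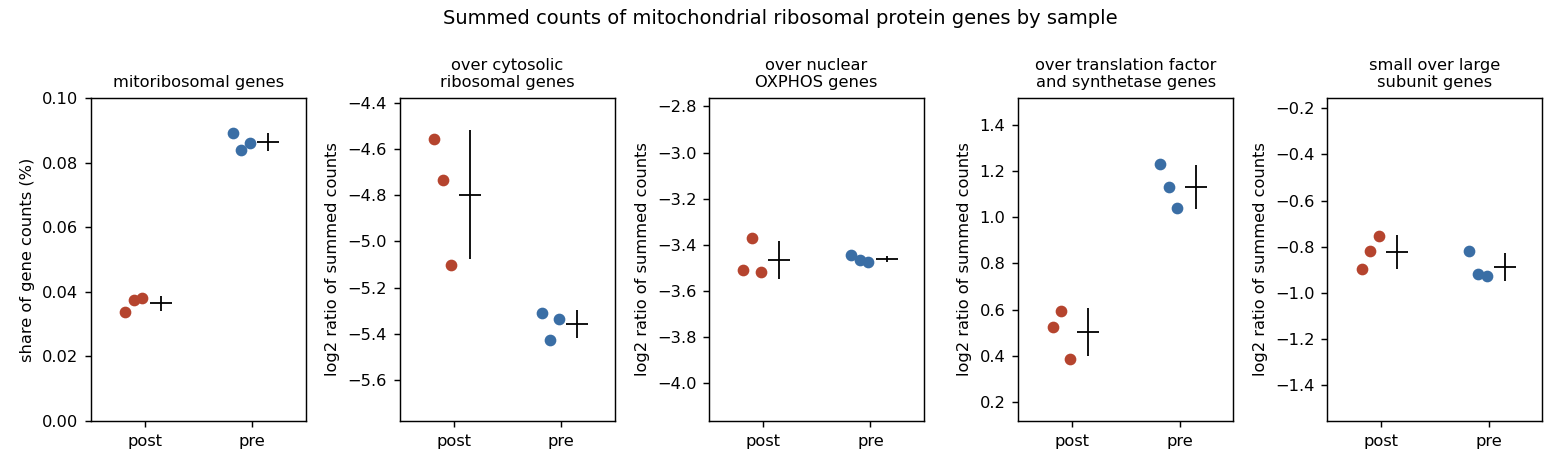
Share of gene counts of the mitochondrial ribosomal protein genes (left) and log2 ratios of their summed counts to other gene groups, with post samples left of pre samples, points for samples and crosses for mean and SD. Post samples lie apart from pre samples for the share (0.0337 to 0.0380% and 0.0837 to 0.0891%), the ratio to cytosolic ribosomal genes and the ratio to factors and synthetases, and overlap for the OXPHOS ratio and the small to large ratio.

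**Figure D5:**
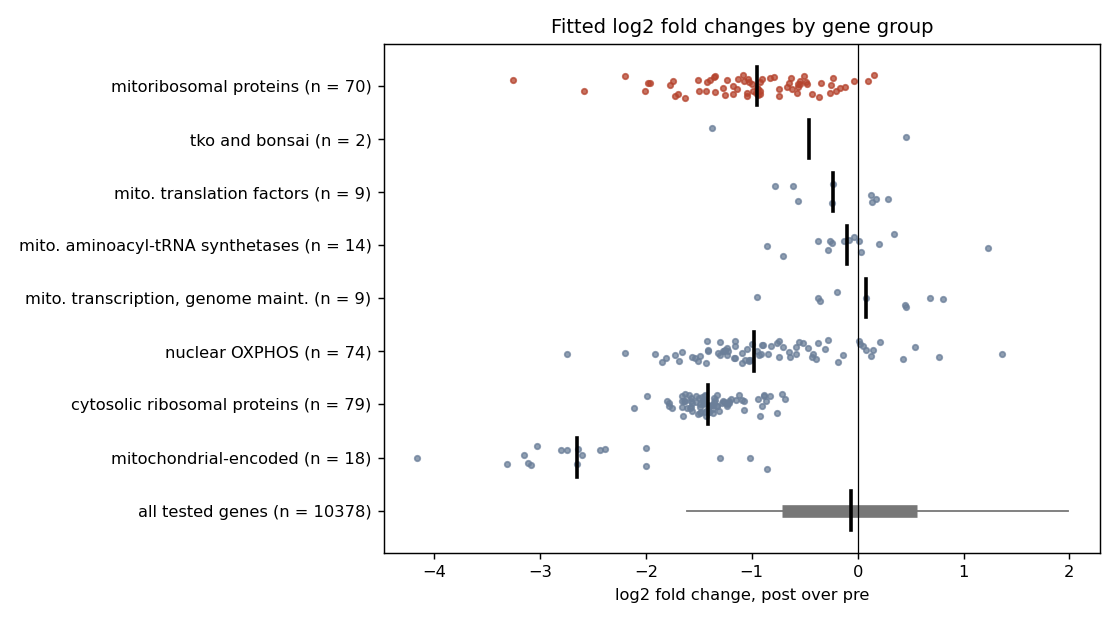
Log2 fold changes, post over pre, of each tested gene by group (points) with the group median (bar); for all 10378 tested genes the box covers the interquartile range and the line the 5th to 95th percentile. The median is -0.95 for the mitochondrial ribosomal protein genes, -0.98 for nuclear OXPHOS genes, -1.41 for cytosolic ribosomal protein genes and -0.07 for all tested genes.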

How the data were processed

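Sequencing reads of 3 post and 3 pre libraries were trimmed with Trimmomatic, mapped with TopHat to the BDGP6 genome and counted by strand with HTSeq by the authors, who deposited raw counts per gene with no normalization. The counter's rows for unassigned alignments (93.4–94.4% of all alignments in post and 95.3–95.6% in pre samples, mostly alignments to several places) were left out of library sizes and tests. The authors also deposited counts of 5262 genes that passed their filter, 5 of them members, and the same as CPM relative to the summed counts of these genes. Their counts served as an alternative, and their CPM values were only checked against them.

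Symbols, positions and exon lengths were taken from a later Ensembl release on this assembly, in which 17252 of 17558 genes (98.3%) were found. With R 4.3.3 and edgeR 4.0.16, a CPM above 1 was required in at least 3 samples, TMM factors estimated (0.802–0.938 in post and 1.16–1.17 in pre samples) and quasi-likelihood models with group as the only term fitted over all 10378 genes. glmTreat against 2-fold and glmQLFTest against no change were adjusted by Benjamini and Hochberg's method (FDR 0.05). The standard error is the log2 fold change divided by the root of the quasi-likelihood F. Single values per sample were compared by two-sided exact permutation tests and, as numbered pairs, by exact tests of sign flips. The fits were also run on simulated counts in which a small part of the genes was raised or lowered in equal numbers. This cannot test the scaling between post and pre samples, and its outcome is not given here. Alternatives were a replicate block, RLE factors, library size alone, DESeq2 1.42.0, the legacy fit, other filters, the authors' filtered genes, removal of mitochondrially encoded genes and each sample left out.

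The labels call the replicates paired. Same-numbered post and pre samples deviated from their group means with correlations of 0.00933, 0.0476 and -0.0134 over genes. Members and gene lists were chosen with earlier results of these data known. Members named are the 7 lowest and 5 highest log2 fold changes, the 5 highest levels per kb in pre samples, those past the 2-fold test, those not tested, the mRpS18 paralogs and those whose call changed under the block. From the companion lists (translation factors, synthetases, transcription and genome maintenance), at most the 2 highest and 2 lowest were named, with those past a test. mRpL13 and mRpS14 were named for their overlaps, after their values were seen. No sequences were used here.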

Additional observations from a re-analysis of the deposited data

How the results depend on the processing

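With the replicate number as a block, 3 members were lower by the 2-fold test and 42 by the no-change test, 41 of them shared with the fit without a block, and the block changed no other call among named members than those of mRpL30 and mRpL52, and among companion genes added mt:ATPase8 and UQCR-11. The number of members past the 2-fold test was 21 with scaling by library size alone, 1 with DESeq2 and 0 among the 5 members of the authors' filtered genes, where 4 passed the no-change test, and it ranged from 1 to 4 with 1 sample left out (no-change test 28 to 35). The cause of these differences was not tested, except that the authors' filtered genes hold only 5 members and a left-out sample lowers the number of samples. The median log2 fold change was -1.40 with library size alone and -0.70 among the filtered genes, and lay between -1.08 and -0.87 with 1 sample left out. The ratio to OXPHOS genes, near 0, changed sign with samples left out (-0.0518 to 0.0216: 0.0162 without post replicate 1, 0.0216 without post replicate 3, 0.00301 without pre replicate 1), and the small to large subunit ratio was -0.0666 without the gene of highest count in each list. Members near 0 changed sign too: mRpL38 was 0.027 with RLE factors, 0.029 with DESeq2, 0.04 without pre replicate 1 and 0.19 without post replicate 3 (-0.16 to 0.19 over left-out samples); mRpL48 was -0.35 with library size alone and -0.12 without post replicate 2 (-0.12 to 0.33); mRpL9 was 0.23 without pre replicate 2 and 0.07 without post replicate 2 (-0.34 to 0.23); mRpS18B was -0.30 with library size alone and -0.48 without post replicate 1 (-0.48 to 0.43). Of 246 values of named members under the alternatives, 214 kept direction and call, 7 gained a call, 15 lost it and 10 changed sign. Counts of 0 to 427 per member and post sample limit the precision, and mRpL36 and mRpS18A could not be fitted when a pre sample was left out, since they then failed the CPM filter.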
